A study of Mus musculus with 4 samples.

Results

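The 87 genes described here were lower in the libraries labelled Ezh2-cKO than in wild type in both sorted cell fractions of the mouse retina. A gene was included when its level plus 1 was at least 1.5 times higher in wild type in the Cd73-negative (Cd73N) fraction and also in the Cd73-positive (Cd73P) fraction, and when it lay on a numbered chromosome. Levels are FPKM, fragment counts scaled to the exon length of the gene and to the mapped total of the library, so levels of different genes can be compared per length. The 87 genes were 0.42% of the 20732 genes on numbered chromosomes that had an OK status in all 4 libraries, out of 21695 such genes on all chromosomes. The genes were thus selected on their measured genotype ratios in both fractions. Of the 20732 genes, 1.69% were lower by this rule in Cd73N and 2.4% in Cd73P, while 7.27% were higher in Cd73N and 2.31% in Cd73P. Since the falls chose the genes, they are given as a description and no test was made of them.

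RNA was sequenced from retina of slc:ICR background mice at postnatal day 12, after sorting of dissociated cells for Cd73, the product of Nt5e and a surface marker of rods and their precursors. In Ezh2-cKO mice, floxed Ezh2 was deleted by the DKK3-Cre transgene, which is active in retinal progenitor cells from an early embryonic age, and wild-type mice were normal littermates. Each of the 4 groups (Cd73N wild type, Cd73N Ezh2-cKO, Cd73P wild type and Cd73P Ezh2-cKO) held 1 library, so no difference below has a replicate check and none was tested. How many animals went into each library at this age was not stated in the sources used here.

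Ezh2 is the catalytic subunit of Polycomb repressive complex PRC2, which methylates lysine 27 of histone H3 and keeps genes silent. The Cd73N fraction holds the retinal cells other than rods, among them bipolar cells, amacrine cells and Müller glia. Bipolar cells carry the signal of photoreceptors to the inner retina. ON bipolar cells sense glutamate with the metabotropic receptor mGluR6, whose G protein closes the channel Trpm1 in the dark, and OFF bipolar cells use ionotropic glutamate receptors.

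The labels were checked first. Ezh2 was at 14.1 FPKM in the wild-type Cd73N library and at 15.9 in the Cd73N library labelled Ezh2-cKO, so its level over the whole gene was not lower there, whereas in Cd73P it was at 5.38 and 3.45. Nt5e was at 125 and 123 FPKM in the Cd73P libraries and below 1 in both Cd73N libraries. Xist was higher in the libraries labelled Ezh2-cKO, at 240 against 52.2 FPKM in Cd73N and at 95.6 against 47.0 in Cd73P, and of the 5 further genes that met the rule on a sex chromosome, 4 were on Y. The sex of the animals and the genotype cannot be told apart in these libraries. All 23 Müller glia genes of a marker list were higher in Cd73N labelled Ezh2-cKO. Their median log2 ratio was 1.86, and their summed level was 8046 against 2002 FPKM. In Cd73P 15 of 20 were higher, with a median of 0.93. Of 22 rod genes 8 were lower and 0 higher in Cd73N, with a median of 0.01, Nrl, the rod transcription factor, being at 27.7 and 11.0 FPKM. In Cd73P 0 of 23 rod genes were lower and 5 higher, with a median of 0.36. The part of these shifts in the lower levels below was not tested. In a sorted bulk sample, fewer cells of a type and less RNA per cell cannot be told apart.

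The following 4 promoter windows show what the sequence before these genes looks like, chosen because they belong to bipolar genes described below and hold the motifs searched for. Each is the 250 bases before an annotated start site, from RefSeq on build GRCm38.p6, written 5′ to 3′ on the strand of the gene. Capitals mark matches, on either strand, to TAATCC, the core recognised by Otx2 and Crx, to TAATTA, a homeodomain core, or to CAGCTG, an E-box. The windows are Cabp5 (chr7:13397905-13398154, plus strand), Cabp2 (chr19:4083269-4083518, plus strand), Isl1 (chr13:116309689-116309938, minus strand) and Pcp2 (chr8:3625283-3625532, minus strand).
Cabp5: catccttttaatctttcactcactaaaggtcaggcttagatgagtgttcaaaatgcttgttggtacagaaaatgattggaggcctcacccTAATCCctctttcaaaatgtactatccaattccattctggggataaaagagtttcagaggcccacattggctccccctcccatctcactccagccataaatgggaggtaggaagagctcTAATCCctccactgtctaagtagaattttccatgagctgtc
Cabp2: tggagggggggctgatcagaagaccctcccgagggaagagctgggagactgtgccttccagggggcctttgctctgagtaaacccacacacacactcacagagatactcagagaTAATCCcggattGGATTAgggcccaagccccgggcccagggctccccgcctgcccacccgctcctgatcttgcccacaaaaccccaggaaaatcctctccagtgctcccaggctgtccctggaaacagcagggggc
Isl1: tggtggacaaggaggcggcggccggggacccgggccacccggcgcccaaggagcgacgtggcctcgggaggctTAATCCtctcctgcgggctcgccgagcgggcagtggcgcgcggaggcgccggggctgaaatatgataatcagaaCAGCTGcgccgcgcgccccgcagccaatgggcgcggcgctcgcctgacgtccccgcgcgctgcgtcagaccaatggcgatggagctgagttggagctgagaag
Pcp2: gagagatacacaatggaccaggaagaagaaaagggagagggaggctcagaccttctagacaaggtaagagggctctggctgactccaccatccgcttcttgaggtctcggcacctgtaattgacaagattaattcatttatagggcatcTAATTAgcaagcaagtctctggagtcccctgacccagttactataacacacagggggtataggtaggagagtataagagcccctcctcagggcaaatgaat
The TAATCC matches began 160 and 41 bases before the start site in Cabp5 and 136 and 124 bases before it in Cabp2. In Isl1 TAATCC began 177 bases and CAGCTG 103 bases before the start, and in Pcp2 TAATTA began 101 bases before it. For 63 of the 87 genes the promoter table held 91 windows of 300 bases (250 before and 50 after the start). TAATCC was in 7.69% of these and in 7.06% of all 32851 windows of the table, TAATTA in 2.20% against 5.29%, and CAGCTG in 14.3% against 16.3%. The shares of windows with TAATCC and with CAGCTG were thus close to those of all windows. A match is only a run of letters, and binding was not measured in these libraries.

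In Cd73N the log2 ratio of Ezh2-cKO to wild type, on the FPKM + 1 scale used for every ratio here, ran from -1.90 to -0.59 over the 87 genes, with a median of -0.72. In Cd73P it ran from -2.47 to -0.60 with a median of -0.96. The median over all genes tested was 0 in both fractions. The fall was larger in Cd73P for 68 genes and larger in Cd73N for 19. A 2-fold fall was seen in Cd73N for 15 genes, in Cd73P for 39 and in both for 8. The counting standard error of a log2 ratio, from the deposited bounds, was 0.01 to 0.17 in Cd73N and 0.02 to 0.21 in Cd73P. Because 1 FPKM was added, a gene with a low level had to lose a larger proportion of it to be included.

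**Figure D1:**
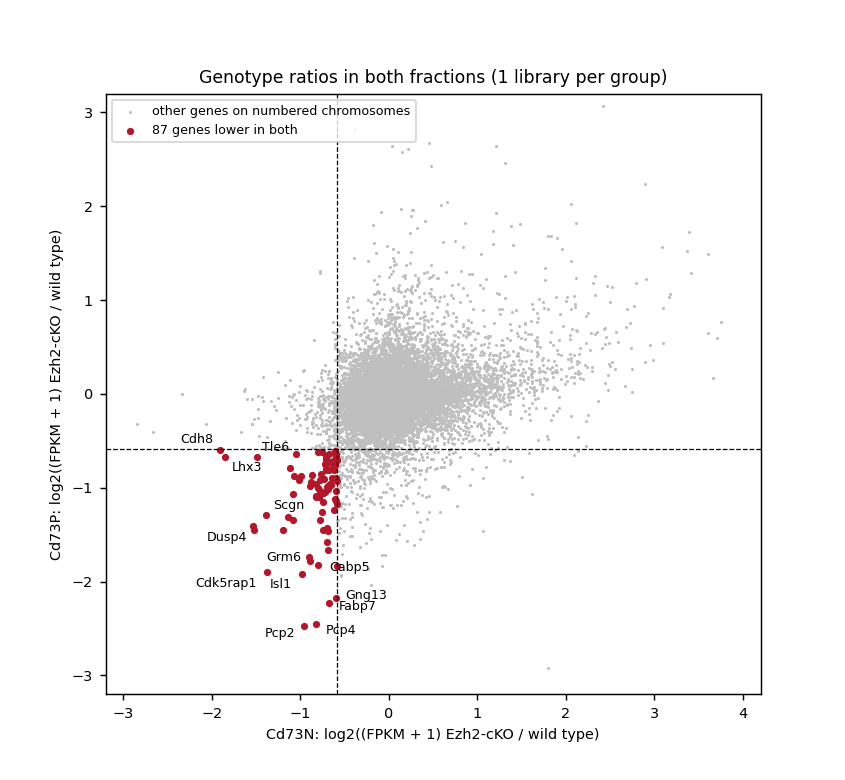
Log2 ratio of (FPKM + 1) between Ezh2-cKO and wild type in Cd73N (x axis) and Cd73P (y axis) for genes on numbered chromosomes, with 1 library per group. Red points are the 87 genes, grey points all other genes, and dashed lines mark 1.5-fold. The 87 genes fill the lower left corner by construction, with Pcp2 and Pcp4 lowest in Cd73P and Cdh8 and Lhx3 lowest in Cd73N.

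The fraction in which these genes were used was not part of the rule, although its values share the wild-type libraries with it. In wild type, 77 of the 87 were higher in Cd73N than in Cd73P by at least 1.5-fold and 0 were higher in Cd73P, while the other 10 lay within 1.5-fold. Over all genes tested, 27.9% were higher in Cd73N and 9.28% in Cd73P. A fairer background is the set of genes with at least 10 FPKM in wild-type Cd73N, of which 51.7% were higher in Cd73N, since 81 of the 87 reached that level. The median log2 ratio of Cd73P to Cd73N was -3.19 over the 87 genes and -0.05 over all genes tested. Over genes with at least 1 FPKM in any library it was -0.45. In the libraries labelled Ezh2-cKO, 79 were higher in Cd73N and 0 in Cd73P, against 29% and 8.63% of all genes tested.

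The level in wild-type Cd73P was at most a small share of that in Cd73N for most genes. It was under 5% of the Cd73N level for 32 genes, 5 to 10% for 18, 10 to 20% for 16 and 20 to 50% for 8. It was 50 to 100% for 8 genes and over 100% for 5. The depth of the fall in Cd73N was similar over these classes, with a median of 57.3% of the wild-type FPKM remaining in the class under 5% and 58.5% in the classes of 50% and over. In Cd73P a median of 28.1% remained in the class under 5% and 46.0% in the classes of 50% and over. With 1 FPKM added, genes with a low Cd73P level had to lose a larger proportion to be included. The rule itself thus sets part of this difference.

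**Figure D2:**
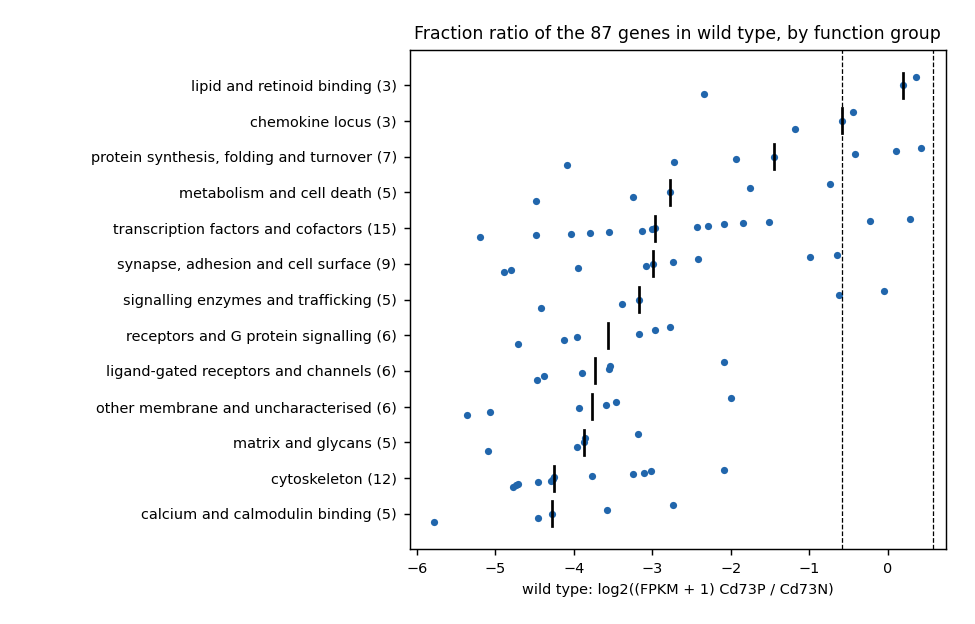
Log2 ratio of (FPKM + 1) between Cd73P and Cd73N in wild type for each of the 87 genes (points), in rows by function group with the number of genes in brackets. Black bars are group medians and dashed lines mark 1.5-fold. The calcium-binding and cytoskeletal groups lie furthest to the Cd73N side (medians -4.27 and -4.26), and the 10 genes within 1.5-fold lie in 5 of the groups.

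**Figure D3:**
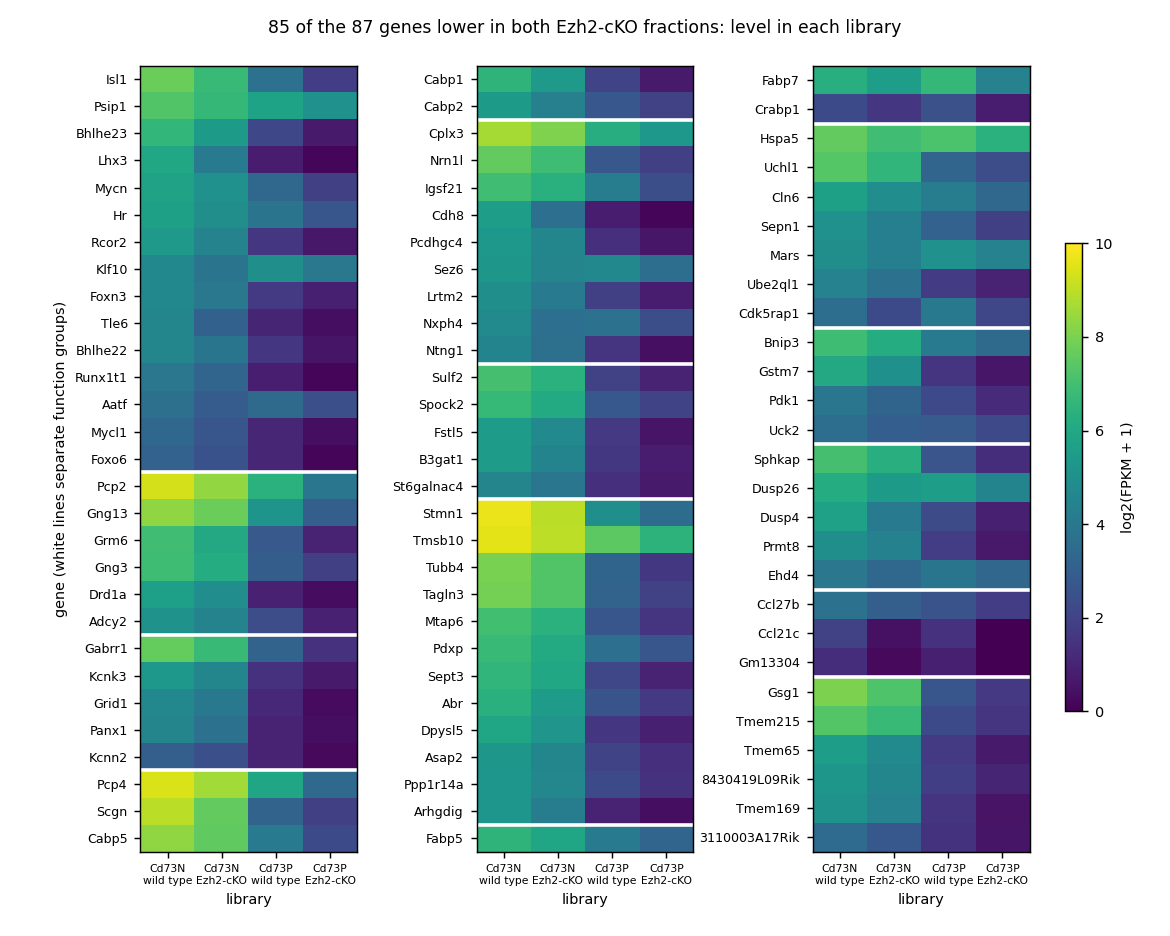
Level of 85 of the 87 genes in the 4 libraries as log2(FPKM + 1), from 0 (dark) to 10 (yellow), in rows by gene and columns by library. White lines separate function groups. Within each fraction the Ezh2-cKO column is darker by construction, and in wild type the Cd73P column is darker than the Cd73N column for most genes, but not for Fabp7, Klf10, Mars, Cdk5rap1 and Crabp1.

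Transcription factors and cofactors formed the largest group, with 15 genes. Isl1, a LIM-homeodomain factor of ON bipolar cells and of other retinal neurons (chromosome 13, 117088478 to 117099896 in mm9), was at 217 FPKM in wild-type Cd73N and 109 in Ezh2-cKO, and at 12.3 and 2.52 in Cd73P. Lhx3, a LIM-homeodomain factor of subsets of bipolar cells (chromosome 2, 26055732 to 26062076), was at 62.9 and 16.6 FPKM in Cd73N and at 0.739 and 0.0945 in Cd73P. Bhlhe23, a basic helix-loop-helix factor needed by rod bipolar cells (chromosome 2, 180509086 to 180511605), was at 98.7 and 42.4 FPKM in Cd73N and at 3.47 and 0.636 in Cd73P. All 3 were thus Cd73N genes in both genotypes, with Cd73P levels that were a few percent of the Cd73N levels. Bhlhe22, the related factor of OFF bipolar and amacrine cells, was at a lower level and had the smallest Cd73N fall of the 4, from 22.8 to 13.8 FPKM, with 1.98 and 0.472 in Cd73P.

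The other factors of this group are not in the bipolar lists used here. Rcor2, a subunit of corepressor complexes with the histone demethylase Lsd1, was at 40.0 and 21.3 FPKM in Cd73N and at 1.96 and 0.546 in Cd73P. Klf10, a zinc finger factor of the TGF-beta response, differed from the rest of this group in being slightly higher in wild-type Cd73P than in Cd73N. It was at 24.7 and 13.5 FPKM in Cd73N and at 30.2 and 15.1 in Cd73P. Mycn and Mycl1, which encode Myc family factors, had log2 ratios of -0.70 and -0.70 in Cd73N and -1.43 and -0.72 in Cd73P, whereas Myc itself was below 1 FPKM in all 4 libraries. Tle6, Psip1, Hr, Foxn3, Runx1t1, Aatf and Foxo6 complete the group, whose wild-type Cd73N levels ranged from 7.86 to 217 FPKM. Aatf was close to equal in the wild-type fractions, with a log2 ratio of -0.23.

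In all, 6 genes encode receptors and G protein signalling components, and 3 of them belong to the mGluR6 cascade of ON bipolar cells. Grm6, the gene of mGluR6 itself (chromosome 11, 50664187 to 50679710), was at 120 and 64.3 FPKM in Cd73N and at 5.91 and 1.01 in Cd73P. Gng13, a G protein gamma subunit of the cascade (chromosome 17, 25854117 to 25856047), was at 326 and 216 FPKM in Cd73N and at 35.3 and 7.06 in Cd73P. Pcp2, a modulator of the G protein alpha subunit Go (chromosome 8, 3623371 to 3625545), was at 653 and 336 FPKM in Cd73N and at 82.9 and 14.1 in Cd73P. Pcp2 had the largest Cd73P fall of the 87 genes, with a log2 ratio of -2.47 and a counting standard error of 0.11. In all 3 the fall in Cd73P was larger than in Cd73N, where the log2 ratios were -0.89, -0.60 and -0.96. Gng3, Drd1a and Adcy2, which encode a gamma subunit, the D1 dopamine receptor and an adenylyl cyclase, had log2 ratios of -0.75 to -0.69 in Cd73N.

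Another 6 genes encode ligand-gated receptors and channels. Gabrr1, the rho1 subunit of the ionotropic GABA receptors on bipolar terminals, was at 199 and 106 FPKM in Cd73N and at 8.03 and 1.70 in Cd73P. Kcnk3, Grid1, Panx1 and Kcnn2 encode a background potassium channel, a delta glutamate receptor, a pannexin and a calcium-activated potassium channel. All 6 were higher in wild-type Cd73N, with Cd73P at 3.05 to 13.0% of it. In a list of GABA-A and GABA-rho subunits drawn up after these genes were seen, 3 of 9 subunits with at least 1 FPKM in a Cd73N library were lower and 0 higher in Cd73N. In Cd73P 3 of 7 were lower and 1 was higher, the latter at no more than 1.06 FPKM in any library. Of the subunits outside the 87, 1 of 7 was lower in Cd73N and 1 of 5 in Cd73P. That in Cd73N was Gabrr3, which was just outside the threshold in Cd73P.

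Calcium and calmodulin binding proteins held some of the highest levels, and their median wild-type Cd73P level was 4.88% of that in Cd73N. Scgn, the gene of secretagogin, a calcium sensor of cone bipolar cells (chromosome 13, 24045326 to 24083083), was at 501 and 191 FPKM in Cd73N and at 8.11 and 2.73 in Cd73P. Its wild-type fraction ratio of -5.79 was the lowest of the 87 genes with 1 FPKM added, although without it Lhx3 had a lower Cd73P share of the Cd73N level, 1.17% against 1.62%. Pcp4, a small calmodulin-binding protein (chromosome 16, 96689213 to 96747400), was at 695 and 394 FPKM in Cd73N and at 57.3 and 9.70 in Cd73P.

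The other 3 genes of the calcium group belong to the CaBP family of calmodulin-like calcium sensors. Cabp5, found in rod bipolar and some cone bipolar cells (chromosome 7, 13983504 to 13994227), was at 327 and 187 FPKM in Cd73N and at 15.9 and 3.78 in Cd73P. Cabp1 was at 89.6 and 40.1 FPKM in Cd73N and at 3.14 and 0.667 in Cd73P. Cabp2 (chromosome 19, 4082488 to 4087339) was at 42.9 and 19.3 FPKM in Cd73N and at 5.58 and 2.80 in Cd73P. All 3 were thus lower by at least 1.5-fold in both fractions, and Cabp2 was the only 1 of the 87 genes whose Cd73P level was a larger share of the Cd73N level in Ezh2-cKO (14.5%) than in wild type (13.0%). Cabp4, the family member of photoreceptor terminals, did not share this pattern, with 30.1 and 31.4 FPKM in Cd73N and 94.8 and 151 in Cd73P.

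A set of 9 genes acts at the synapse, in adhesion or at the cell surface. Cplx3, a complexin of ribbon synapses that regulates vesicle fusion, was the most abundant, at 405 and 265 FPKM in Cd73N and at 75.0 and 39.5 in Cd73P. Nxph4, a secreted ligand of neurexins (chromosome 10, 126962529 to 126971615), was at 25.5 and 11.5 FPKM in Cd73N and at 12.4 and 4.30 in Cd73P. In wild type its Cd73P level reached 48.6% of that in Cd73N, far above that of its relatives, since Nxph1 and Nxph3 were below 1 FPKM in both Cd73P libraries. Nxph1 and Nxph3 were also lower in Cd73N, at 19.5 and 1.85 FPKM and at 24.8 and 13.1 FPKM. Cdh8, a cadherin of OFF bipolar cells singled out after its values were seen, had the largest Cd73N fall of the 87 genes, with a log2 ratio of -1.90 and a counting standard error of 0.04, but only -0.60 in Cd73P, where it was below 1 FPKM. Nrn1l, Igsf21, Pcdhgc4, Sez6, Lrtm2 and Ntng1 complete the group.

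Matrix proteins or enzymes that modify glycans were encoded by 5 genes, namely Sulf2, an extracellular heparan sulfatase, Spock2 and Fstl5, secreted proteins with follistatin-type domains, B3gat1, which makes the HNK-1 glycan, and St6galnac4, a sialyltransferase. Their wild-type Cd73N levels were 22.2 to 131 FPKM, and their Cd73P levels were 2.19 to 6.96% of these. No gene of this group came near equality between fractions.

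The cytoskeletal group held 12 genes and the highest levels of all. Stmn1, the microtubule-destabilising protein stathmin (chromosome 4, 134024235 to 134029758), was at 833 and 497 FPKM in Cd73N and at 30.2 and 10.5 in Cd73P. Tmsb10, a thymosin that binds actin monomers, was at 767 and 507 FPKM in Cd73N and at 180 and 87.6 in Cd73P, the highest Cd73P level among the 87 genes. Tubb4, a beta-tubulin of neurons, was at 253 and 155 FPKM in Cd73N and at 8.24 and 2.09 in Cd73P. All 3 were higher in Cd73N, but Tmsb10 kept 23.5% of its Cd73N level in wild-type Cd73P, against 3.63 and 3.25% for the other two. Tagln3, Mtap6, Pdxp, Sept3, Abr, Dpysl5, Asap2, Ppp1r14a and Arhgdig complete the group, and all 12 were higher in wild-type Cd73N.

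The pattern differed in the 3 lipid and retinoid binding proteins. Fabp7, the brain fatty acid binding protein and a gene of progenitors and glia (chromosome 10, 57504729 to 57508256), was at 77.5 and 48.3 FPKM in Cd73N but at 99.8 and 20.5 in Cd73P. Its log2 ratio was -0.67 in Cd73N and -2.23 in Cd73P, with counting standard errors of 0.05 and 0.06. Crabp1, the cellular retinoic acid binding protein, was at 3.81 and 1.98 FPKM in Cd73N and at 4.53 and 0.743 in Cd73P. Both were as high in wild-type Cd73P as in Cd73N, yet at 42.4 and 37.6% of the Cd73N level in Ezh2-cKO. Fabp5 was higher in wild-type Cd73N, with Cd73P at 18.9%. Fabp7 was also the only gene of a list of 12 progenitor and cell cycle genes among the 87.

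A further 7 genes act in protein synthesis, folding and turnover, and several of these were nearly equal between fractions. Hspa5, the endoplasmic reticulum chaperone BiP (chromosome 2, 34627610 to 34632049), was at 190 and 123 FPKM in Cd73N and at 142 and 82.5 in Cd73P. It was singled out after its values were seen. Mars, the methionyl-tRNA synthetase (chromosome 10, 126733277 to 126748842), was at 29.8 and 19.1 FPKM in Cd73N and at 32.0 and 20.5 in Cd73P. Cdk5rap1, a methylthiotransferase that modifies mitochondrial tRNA (chromosome 2, 154161122 to 154198455), was at 11.2 and 3.71 FPKM in Cd73N and at 15.4 and 3.39 in Cd73P. Mars had nearly the same log2 ratio in both fractions (-0.61 and -0.62), and Cdk5rap1 was 2-fold lower in both (-1.37 and -1.90) and had the highest wild-type fraction ratio of the 87 genes, 0.43. Mars overlaps Ddit3, and the libraries were not stated to keep strand. Uchl1, Cln6, Sepn1 and Ube2ql1 complete the group, of which 4 genes were higher in wild-type Cd73N.

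Genes of metabolism and cell death numbered 5. Gstm7, a glutathione S-transferase, was at 63.9 and 31.1 FPKM in Cd73N and at 1.91 and 0.535 in Cd73P. Bnip3, Pdk1 and Uck2 had smaller falls, with log2 ratios of -0.70 to -0.60 in Cd73N. All 5 were higher in wild-type Cd73N, and Uck2, at 56.5%, had the highest Cd73P share.

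Among the 5 signalling enzymes and trafficking genes, Dusp4 stood lowest. Dusp4, a phosphatase that inactivates MAP kinases (chromosome 8, 35870664 to 35882948), was at 51.2 and 17.1 FPKM in Cd73N and at 3.99 and 0.823 in Cd73P, and ranked first of the 87 genes when each was judged by the smaller of its falls, with log2 ratios of -1.53 and -1.45. Ehd4, an endocytic ATPase, was the most even, with a wild-type fraction ratio of -0.04 and log2 ratios of -0.60 in both fractions. Sphkap, Dusp26 and Prmt8 complete the group.

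The remaining genes, which encode membrane proteins or are of less known function, were Gsg1, Tmem215, Tmem65, 8430419L09Rik, Tmem169 and 3110003A17Rik. Gsg1 was at 261 and 149 FPKM in Cd73N and at 5.36 and 2.17 in Cd73P. Tmem65, a protein of the mitochondrial inner membrane, was at 48.2 and 25.6 FPKM in Cd73N and at 2.22 and 0.631 in Cd73P. All 6 were higher in wild-type Cd73N. Gsg1 lies 1.09 kb from 8430419L09Rik in mm9.

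The 3 genes of a chemokine locus on chromosome 4 are uncertain, since their sequences are repeated there. Ccl21c, on several rows that were summed, was at 2.98 and 0.370 FPKM in Cd73N and at 1.65 and 0.0004 in Cd73P. Gm13304 and Ccl27b lie in the same cluster, and Ccl21c and Gm13304 also have a copy on an unplaced contig. The FPKM of near-identical copies cannot be assigned to 1 gene. In all, 15 of the 87 genes overlap another gene, Pcdhgc4 among them, which overlaps 22 genes of the protocadherin clusters with shared exons.

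The 87 genes lay on many chromosomes. Chromosome 4 held 12 of them, or 13.8%, against 6.38% of the genes tested, and 3 of the 12 were the chemokine genes. Close pairs within 500 kb were Mars and Nxph4, Gng13 and Arhgdig, Stmn1 and Sepn1, Kcnk3 and Dpysl5, and Gsg1 and 8430419L09Rik, beside the chemokine cluster. Stmn1 and Sepn1 lie 64.0 kb apart.

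Genes of the bipolar cell program were taken from 3 lists, which include some of the 87. Of 13 bipolar transcription factors, 4 were among the 87 (Isl1, Lhx3, Bhlhe22 and Bhlhe23). In Cd73N 9 of the 13 were lower and 0 higher, with a median log2 ratio of -0.76, and in Cd73P 5 of the 8 that reached 1 FPKM were lower and 1 higher, with a median of -0.97. These counts include the 4, which were lower by the rule. Outside the 87, 5 of 9 were lower in Cd73N, with a median of -0.75, and 2 of 5 in Cd73P, with a median of -0.54. Irx6, a factor of OFF bipolar cells, was at 34.7 and 4.61 FPKM in Cd73N, a deeper fall than any of the 87, but was at 0.405 and 0.0580 FPKM in Cd73P, where with 1 FPKM added even a fall to 0 would not have reached 1.5-fold. Vsx1, at 85.5 and 37.5 FPKM in Cd73N, had a log2 ratio of -0.58 in Cd73P and missed it narrowly. Both were thus lower in Cd73N by the rule and outside it in Cd73P.

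Of 14 genes of the mGluR6 cascade, 3 were among the 87. In Cd73N 4 were lower and 0 higher, with a median of -0.35, and in Cd73P 9 of 12 were lower and 0 higher, with a median of -1.04. These counts include the 3, which were lower by the rule. Outside the 87, 1 of 11 was lower in Cd73N, with a median of -0.11, and 6 of 9 in Cd73P, with a median of -0.73. Trpm1, the channel at the end of the cascade, was at 42.9 and 29.1 FPKM in Cd73N and at 8.19 and 1.39 in Cd73P, so it was past 1.5-fold only in Cd73P (log2 ratios of -0.55 and -1.94). Gnao1 and Gnb3, the alpha and beta subunits of the G protein, had log2 ratios of -0.50 and -0.33 in Cd73N and -1.32 and -0.98 in Cd73P. Gnb5 and Rgs9bp, which rods also use, were not lower in Cd73P, with ratios of 0.43 each. Of 18 other bipolar markers, 3 were among the 87 (Scgn, Cabp5 and Cabp2), with medians of -0.28 in Cd73N and -0.86 in Cd73P. In Cd73N 7 of the 18 were lower and 1 higher, and in Cd73P 8 of 12 were lower and 0 higher. Without the 3, 4 of 15 were lower in Cd73N, with a median of -0.20, and 5 of 9 in Cd73P, with a median of -0.67. Prkca, the protein kinase C of rod bipolar cells, was within 1.5-fold in both fractions, at 28.5 and 24.6 FPKM in Cd73N and at 26.8 and 29.7 in Cd73P.

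**Figure D4:**
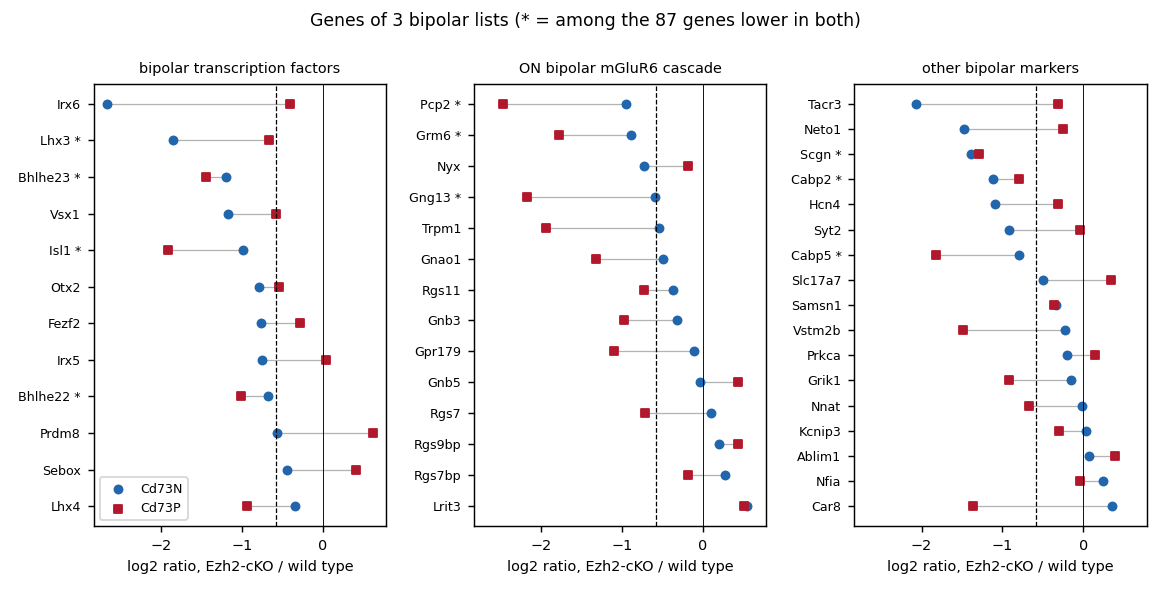
Log2 ratio of (FPKM + 1) between Ezh2-cKO and wild type in Cd73N (blue circles) and Cd73P (red squares) for genes of 3 bipolar lists, with 1 library per group. An asterisk marks the genes among the 87, the solid line is no difference and the dashed line is 1.5-fold lower. In the mGluR6 list most red squares lie to the left of the blue circles, while Irx6, Tacr3, Neto1 and Hcn4 are past the dashed line only in Cd73N. Their wild-type Cd73P levels were below 0.5 FPKM, from where 1.5-fold cannot be reached with 1 FPKM added.

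None of the genes in the rod, cone, Müller glia, amacrine, horizontal, retinal ganglion cell, microglia, endothelial, erythroid, pigment epithelium, lens, Slit and Robo or PRC2 lists was among the 87. Only 0.42% of all genes tested met the rule, so this absence is not a result about these lists. In several of them few genes reached 1 FPKM in a Cd73P library, such as 2 of 13 retinal ganglion cell, 2 of 13 lens and 4 of 13 amacrine genes tested. In a list of Purkinje cell proteins, Pcp2 and Pcp4 were, while Pcp4l1 was at 140 and 107 FPKM in Cd73N and at 15.0 and 113 in Cd73P, a log2 ratio of 2.83 in the other direction.

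Sorting can be incomplete, and RNA of Cd73N cells in a Cd73P library would give each Cd73N gene a level there that is some share of its Cd73N level. For comparison, 31 genes of the bipolar lists that were not among the 87 and had at least 10 FPKM in wild-type Cd73N were used. Their median Cd73P share of the Cd73N level was 9.64% for wild type and 3.56% for Ezh2-cKO. These shares ran up to 383% in wild type, and 4 of the 31 genes (Gnb5, Lrit3, Rgs9bp and Slc17a7) were higher in Cd73P than in Cd73N, so the median is not a measure of RNA carried over by sorting alone. For 18 Müller glia genes the median share was 6.78% in wild type and 4.05% in Ezh2-cKO, and for 5 erythroid genes it was 0.755 and 0.662%. These 3 sets thus had a smaller share in the Cd73P library labelled Ezh2-cKO, but the change differed among other lists. For 5 microglia genes the median share was 20.34% in wild type and 20.03% in Ezh2-cKO, so it was hardly smaller. The medians were 6.65 and 2.22% for 11 cone genes, and 2.17 and 0.537% for 5 endothelial and pericyte genes. For 2 Slit and Robo genes the median was larger in Ezh2-cKO, at 3.96 and 5.76%. The shares of these other lists were not used below. For the 87 genes the median share was 8.22% in wild type and 3.95% in Ezh2-cKO, and it was smaller in Ezh2-cKO for 86 of them, although these shares use the same libraries as the rule. The part of this difference between the libraries in the Cd73P falls was not tested.

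The wild-type Cd73P level was under 9.64% of the Cd73N level for 50 of the 87 genes and over it for 37, Scgn (1.62%), Lhx3 (1.17%) and Grm6 (4.92%) being among the former. With the Müller glia share 40 genes were under it, and with the erythroid share 0 of 87 were. For 17 genes the wild-type Cd73P level was more than 3 times the bipolar share: Ccl21c, Cdk5rap1, Nxph4, Gm13304, Klf10, Aatf, Cln6, Sez6, Dusp26, Ccl27b, Crabp1, Fabp7, Hspa5, Psip1, Mars, Ehd4 and Uck2. Taking 9.64% of the wild-type and 3.56% of the Ezh2-cKO Cd73N level of Fabp7 gave a fall of 5.75 FPKM, against 79.3 FPKM measured, or 7.25% of it. For Cdk5rap1 the same product fell by 0.946 FPKM against 12.0 measured, for Klf10 by 1.90 against 15.1 and for Mars by 2.19 against 11.5. For Pcp2 it fell by 51.0 against 68.8, and for Grm6 by 9.29 against 4.90. Fabp7, Cdk5rap1, Klf10 and Mars are among the 17 genes over 3 times the share. A product below their measured fall followed from that choice and from the rule, and carry-over was not tested.

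The product was larger than the whole measured Cd73P fall for 55 of the 87 genes, at a median of 142% of it, with Lhx3 at 849%, Scgn at 772%, Cdh8 at 700% and Tmem215 at 631%. With the Müller glia shares it was larger for 41 genes and with the erythroid shares for 0. Which of the 87 genes fell by more than the product thus depended on the genes from which the share was taken, and these comparisons were added after the data were seen.

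**Figure D5:**
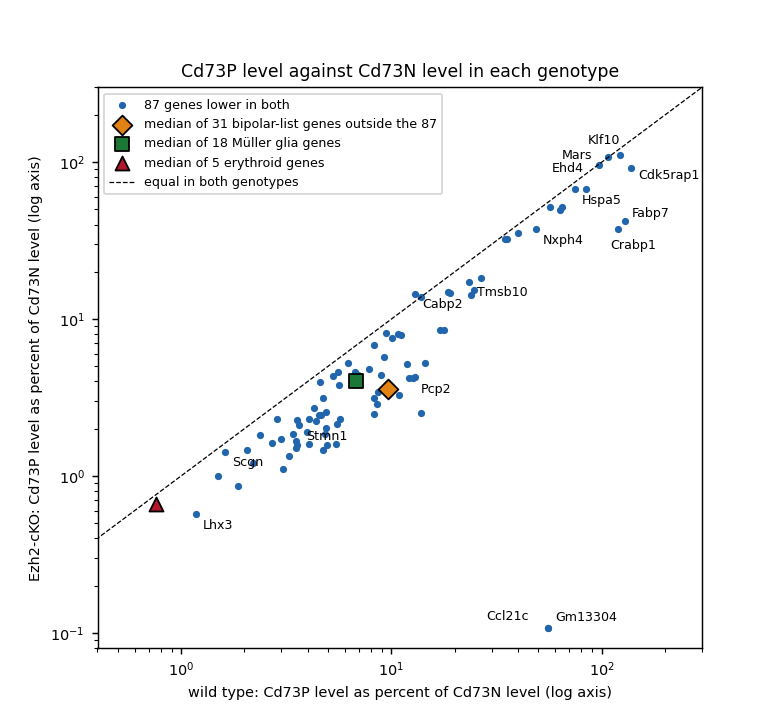
Cd73P level as a percent of the Cd73N level for each of the 87 genes (points) in wild type (x axis) and Ezh2-cKO (y axis), both on log axes. The diamond is the median of 31 bipolar-list genes outside the 87 (9.64 and 3.56%), the square that of 18 Müller glia genes (6.78 and 4.05%), the triangle that of 5 erythroid genes (0.755 and 0.662%), and the dashed line marks equal shares. All points but Cabp2 lie below the line, with Fabp7 and Crabp1 far below it and Mars and Ehd4 almost on it.

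The genes nearest the threshold had similar values on both sides of it. Just inside, by the smaller of the falls in both fractions, were among others Igsf21, Mtap6, Kcnn2 and Tmem215, whose smaller fall was -0.59 on the log2 scale in each. Igsf21, an immunoglobulin protein of synapses, was at 123 and 81.3 FPKM in Cd73N and at 17.6 and 4.24 in Cd73P. Just outside, at -0.58 in each, were Kif19a, Podxl2, Crmp1, Ndrg1 and Gabrr3. Crmp1, a relative of Dpysl5, was at 207 and 138 FPKM in Cd73N and at 8.30 and 3.63 in Cd73P. Of these, Kif19a and Ndrg1 were higher in Cd73P than in Cd73N in wild type, at 44.2 against 2.83 and at 430 against 99.5 FPKM. The number of genes that met the rule depended on the scale: it was 253 with 0.1 FPKM added, 33 with 5 FPKM added and 52 when libraries were scaled by their FPKM sum. Of the 87, 33 still met the rule with 5 FPKM added and 43 under scaling by the FPKM sum. All 87 stayed below 0 in both fractions on each scale, which choosing them at 1.5-fold largely fixed in advance. For 85 of the 87 the deposited bounds of the genotypes did not overlap in either fraction, the others being Ccl27b and Ppp1r14a. By the same measure 19.4% of all genes tested were lower in Cd73N and 16.2% in Cd73P, and the bounds cover counting error within a library only.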

How the data were processed

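Poly(A) RNA of Cd73-sorted retinal cells was sequenced by the authors as 36-base single-end reads from double-stranded cDNA for which no strand marking was stated. Reads were aligned to mm9 with TopHat 2.0.8b (coverage search, at most 50 hits per read), and the authors deposited FPKM per gene from Cufflinks 2.1.1 with lower and upper bounds and a status. Reads with several hits can be shared among copies, and FPKM is relative, so a rise in some genes lowers the rest. Absolute depth is unknown. Relative depth, from the width of the bounds over 1779 genes, was 1, 1.18, 1.01 and 1.04 in the order Cd73N wild type, Cd73N Ezh2-cKO, Cd73P wild type and Cd73P Ezh2-cKO.

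From these values, rows of 1 symbol were summed, genes without an OK status in all 4 libraries and small RNA symbols were left out, and ratios were computed as log2(FPKM + 1). A bound width was taken as 4 standard errors. The deposited FPKM exceeded the upper bound given with it, in 1 library or more, for 54 of the 87 genes, so these errors are approximate. With 1 library per group no test was run. Positions are the mm9 gene spans with starts counted from 1. The 87 genes, the marker lists and the alternatives were chosen with earlier results of these data known. Function groups, and the lists of GABA receptor subunits, CaBP proteins, lipid binding proteins, Myc factors, chaperones and tRNA synthetases, were drawn up after the 87 symbols were seen. Full values are given for the 15 genes with the largest smaller fall and the 10 with the highest wild-type level. They are also given for those of the 87 in the marker lists and the 5 highest in Cd73P against Cd73N. Only some other genes of the lists and some genes at the threshold have full values. Others are named with ratios or by name. A few genes are counted but not reported by name here. Promoter windows were matched by current symbol for 63 genes. The counting was tested on simulated data in which only genes with a mean of at least 10 FPKM in each fraction were lowered. Of the 87 genes, 24 reached 10 FPKM in both wild-type libraries, so falls at lower levels were not covered. Python 3.11.15, numpy 2.4.6, pandas 2.3.3 and matplotlib 3.10.9 were used.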

Additional observations from a re-analysis of the deposited data

Results flagged for a closer look

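The medians of 2 marker lists were at least 0.3 from 0 on the log2 scale, in opposite directions in the fractions. The medians of 5 other lists also differed in sign but were nearer to 0 in at least 1 fraction (retinal ganglion cell, endothelial and pericyte, pigment epithelium, progenitor and cell cycle, and Slit and Robo). For cones, 13 listed genes had a Cd73N median of 0.34 and 11 had a Cd73P median of -0.60, which differ by -0.94. For amacrine cells, 8 genes had a Cd73N median of 0.70 and 4 had a Cd73P median of -0.33, which differ by -1.03. None of these differences was tested, since each fraction had 1 library per genotype.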

How the results depend on the processing

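The main value of each result is given above. With 0.1 FPKM added in place of 1, 253 genes met the rule, 222 of them higher in wild-type Cd73N and 8 higher in Cd73P, and the median log2 fraction ratio was -3.56. With 5 FPKM added these values were 33, 27, 0 and -2.49. Scaling by the FPKM sum gave 52 genes, 41 and 3 of them higher in Cd73N and Cd73P, and a median of -2.91, and 43 of the 52 were among the 87. Scaling by the median ratio gave 68 genes, 2 of them higher in Cd73P, and a median of -2.99, and 63 of the 68 were among the 87. The scalings shift the medians of the genes with at least 1 FPKM in all 4 libraries. Scaling by the FPKM sum shifts them by 0.136 in Cd73N, -0.0547 in Cd73P and 0.377 in the fraction ratio. Scaling by the median ratio shifts them by 0.0757, 0.0337 and 0.262. A 2-fold threshold left 8 genes, 5 of them higher in Cd73N. A minimum of 10 FPKM in both wild-type libraries left 24 genes, 18 of them higher in Cd73N, and medians of the Cd73P level of 25.0% of Cd73N in wild type and 17.8% in Ezh2-cKO. Adding 1 FPKM gave 11.0 and 9.34%. With genes of every status 1 gene was higher in Cd73P. The Cd73N medians of the transcription factor, mGluR6 and other bipolar lists were -0.68, -0.26 and -0.20 under median scaling and -0.62, -0.20 and -0.13 under sum scaling, and that of the factors was -0.63 with 5 FPKM added. Their Cd73P medians were -0.58, -0.85 and -0.34 over all listed genes and -0.46, -0.64 and -0.43 with 5 FPKM added. No direction reversed. Omitting the chemokine locus, added after the data were seen, gave 84 genes. The cause of these moves was not tested beyond what each setting changes by construction. No paired analysis was possible because each group held 1 library, and for the same reason no replicate could be left out.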

Other observations

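Lists drawn up after the 87 genes were seen show how their relatives behaved. Beside Hspa5, 16 endoplasmic reticulum chaperones and stress factors had a Cd73N median log2 ratio of -0.32, with 3 lower and 0 higher, and a Cd73P median of -0.40, with 2 lower and 0 higher. Hsp90b1, the chaperone Grp94, was at 220 and 152 FPKM in Cd73N and at 223 and 139 in Cd73P, with log2 ratios of -0.53 and -0.67. Calr, the calcium-binding chaperone calreticulin, was at 418 and 271 FPKM in Cd73N and at 240 and 164 in Cd73P, with ratios of -0.62 and -0.54. Both narrowly missed the rule in 1 of the fractions. Ddit3 and Atf4, transcription factors of the stress response, were within 0.2 of no difference in both fractions, with ratios of -0.07 and -0.19 in Cd73N and 0.03 and 0.06 in Cd73P.

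Beside Mars, 19 cytosolic aminoacyl-tRNA synthetases had a Cd73N median of -0.26, with 2 of them lower, and a Cd73P median of -0.12, with 0 lower. Gars, the glycyl-tRNA synthetase, was at 49.9 and 31.3 FPKM in Cd73N but at 35.6 and 40.1 in Cd73P. Among intracellular lipid and retinoid binding proteins, Fabp5, Fabp7 and Crabp1 were the 3 lower genes of 7 in each fraction, which the rule fixed. The 4 others had medians of 0.37 in Cd73N and 0.31 in Cd73P, with 0 lower and 1 higher in each fraction. For 8 genes of the Myc family, 2 of them among the 87, the Cd73N and Cd73P medians were -0.40 and -0.22, and for 4 CaBP genes, 3 of them among the 87, they were -0.96 and -1.05.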
